A study of Caenorhabditis elegans with 2 samples.

Results

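The members described here are 2303 ranked regions of LIN-39-eGFP ChIP-seq whose summits lay in the piRNA gene clusters of Caenorhabditis elegans chromosome IV. They were taken by position alone, as the regions of the pooled list with a summit between 4.5 and 7.0 Mb (cluster 1, 850 regions) or between 13.5 and 17.2 Mb (cluster 2, 1453 regions) on the ce11 build. They made up 7.68% of the 30000 ranked regions of the genome and 40.02% of the 5754 regions of chromosome IV, on 35.4% of its sequence. The other 3451 regions of the chromosome, called the rest of chromosome IV, were the comparison. Both libraries came from L1 larvae, whole animals of pooled male and female sex, of strain OP18, which carries the unc-119(ed3) III allele and the integrated transgene wgIs18 with lin-39 fused to eGFP. The labels give 1 group with 2 biological replicates, an unknown age, an antibody field naming lin-39, and no promoter for the transgene, and all cell types of the larva contributed chromatin. A list was deposited for replicate 1, for replicate 2 and for both pooled, each with 30000 regions, together with a set of 1488 optimal peaks, which were the 1488 strongest regions of the pooled list. By the submitters' naming, the pooled list holds peaks and background for IDR (irreproducible discovery rate), and the optimal set is IDR-thresholded. Of the 2303 cluster regions, 2226 were outside the optimal set and may be background. With a single group no comparison could be tested over samples, so all values below are descriptions, and exact binomial intervals (Clopper-Pearson, 95%) cover the counting of regions or genes only. Read depth is unknown, and the control library was not analysed here.

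In C. elegans, piRNAs are short RNAs bound by the PIWI protein PRG-1 that silence foreign sequence in the germ line. Most are made from very short genes of their own, each with its own start, many of which have an upstream motif containing CTGTTTCA, and these genes crowd into clusters on chromosome IV, between and inside protein-coding genes. LIN-39 is a Hox homeodomain transcription factor of the mid-body, with roles in neuroblast migration, ventral cord neurons and the vulva.

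Below are the reference sequences (RefSeq genome, ce11) of the 5 piRNA genes nearest to the strongest cluster regions within 100 bp of a piRNA start and outside every protein-coding start window. Each runs from 70 bp upstream of the gene through its 21 bases, which are the last 21 printed, and capitals mark CTGTTTCA. All 5 genes lie in cluster 2 on the plus strand.
21ur-8457, chrIV:13721109-13721199: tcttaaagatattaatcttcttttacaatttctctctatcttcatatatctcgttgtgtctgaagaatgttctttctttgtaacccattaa
21ur-14711, chrIV:15914291-15914381: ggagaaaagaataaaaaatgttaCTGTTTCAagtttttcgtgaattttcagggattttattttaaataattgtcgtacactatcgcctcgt
21ur-10317, chrIV:16229906-16229996: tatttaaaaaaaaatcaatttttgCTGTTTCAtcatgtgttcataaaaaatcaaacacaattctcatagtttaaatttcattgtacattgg
21ur-4403, chrIV:14849781-14849871: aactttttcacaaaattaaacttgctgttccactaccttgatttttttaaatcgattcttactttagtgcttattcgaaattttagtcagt
21ur-3410, chrIV:14273873-14273963: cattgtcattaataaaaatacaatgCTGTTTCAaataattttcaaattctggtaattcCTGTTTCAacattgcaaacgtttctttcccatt
The motif began 47 bp before the first base of 21ur-14711 and 46 bp before that of 21ur-10317. 21ur-3410 held 2 copies, which began 45 and 12 bp before its first base. No CTGTTTCA was found in the 70 bp upstream of 21ur-8457 or of 21ur-4403.

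For contrast, the next 3 sequences (plus strand, ce11, RefSeq) are 101 bp around the summits of strong optimal peaks more than 100 bp from any piRNA start. They are the strongest peak of each cluster whose window held no exon, and the strongest that also lay outside every protein-coding start window.
Y17G9B.5 upstream, cluster 1, chrIV:4750014-4750114: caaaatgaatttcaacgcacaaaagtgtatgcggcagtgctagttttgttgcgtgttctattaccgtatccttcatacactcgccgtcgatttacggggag
dld-1 upstream, cluster 2, chrIV:14464204-14464304: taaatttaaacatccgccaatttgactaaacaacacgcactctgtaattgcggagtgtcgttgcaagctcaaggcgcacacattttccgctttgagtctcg
Y105C5A.1 far upstream, cluster 2, chrIV:15570897-15570997: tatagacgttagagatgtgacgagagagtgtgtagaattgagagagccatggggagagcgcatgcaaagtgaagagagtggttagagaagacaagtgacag
These windows were searched on both strands for CTGTTTCA, for the Hox and PBX composite site TGATNNAT and for the homeodomain core TAATTA, none of which occurred in them.

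Of 14714 piRNA genes annotated on chromosome IV, 14204 (96.5%) started inside the 2 intervals, at 229 per 100 kb against 4.52 per 100 kb in the rest. Cluster 2 was the denser, with 308 piRNA genes per 100 kb against 113 in cluster 1. Protein-coding genes were sparser in the clusters, with 941 genes or 15.2 per 100 kb, against 2340 genes or 20.7 per 100 kb in the rest.

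Ranked regions were denser in the clusters than in the rest of the chromosome, and the excess was smaller in replicate 2. The pooled list had 37.1 regions per 100 kb in the clusters and 30.6 in the rest, a ratio of 1.22. Replicate 1 had 36.5 per 100 kb in the clusters and 30.8 in the rest, a ratio of 1.19. Replicate 2 had 32.3 per 100 kb in the clusters and 31.0 in the rest, a ratio of 1.04. Cluster 2 held 39.3 pooled regions per 100 kb and cluster 1 held 34.0, while the stretch of the rest between them held 29.1 and the stretch left of cluster 1 held 32.6. In replicate 1, cluster 2 held 38.9, cluster 1 held 32.9 and the stretch left of cluster 1 held 32.4. In replicate 2 these densities were 33.1, 31.0 and 32.3. Cluster 1 there matched the 31.0 of the rest and was below the stretch to its left. Over 100 kb bins the pooled count averaged 37.1 ± 9.41 in the clusters (SD, 62 bins) and 30.6 ± 9.80 in the rest (SD, 112 bins), so the difference in means was smaller than the spread among bins of either kind. The cluster bins ran from 16 to 63 regions and those of the rest from 6 to 69, and so overlapped over nearly their whole range.

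**Figure D1:**
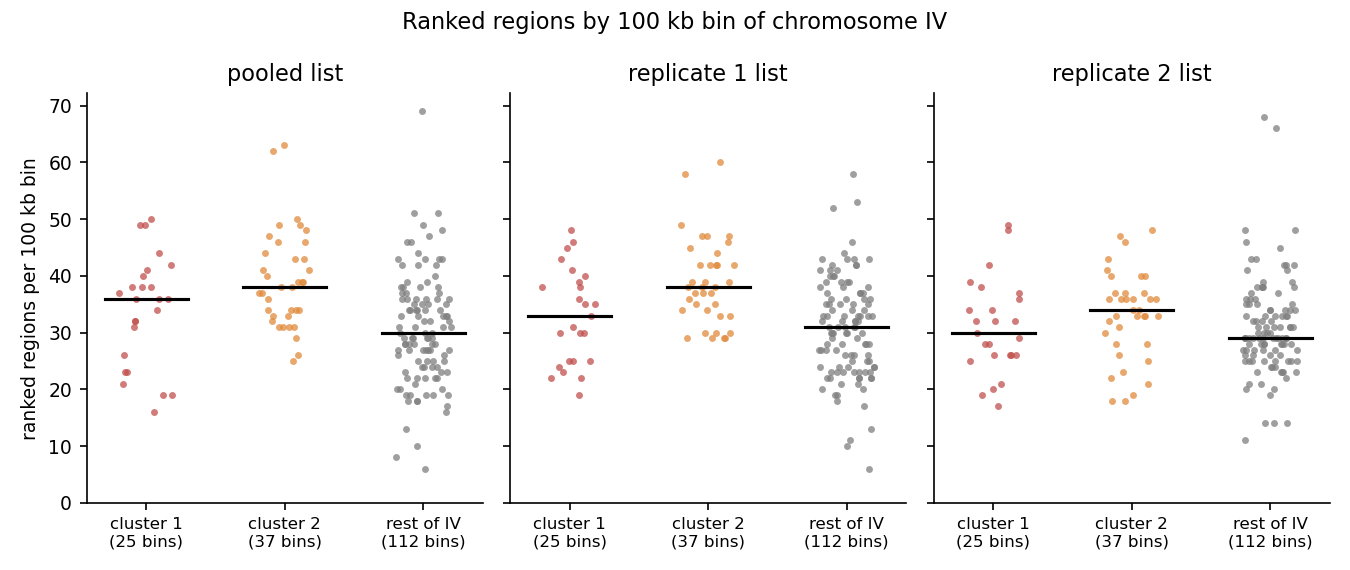
Ranked regions in each 100 kb bin of chromosome IV (vertical axis, count per bin) for cluster 1, cluster 2 and the rest, in the pooled, replicate 1 and replicate 2 lists. Points are bins and black lines are medians; pooled medians were 36 in cluster 1, 38 in cluster 2 and 30 in the rest.

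Within the clusters, bins with more piRNA genes held more ranked regions. Across the 25 bins of cluster 1, Spearman's rho between the pooled region count and the piRNA gene count was 0.64, and across the 37 bins of cluster 2 it was 0.55. By replicate it was 0.55 in replicate 1 and 0.69 in replicate 2 for cluster 1, and 0.28 in replicate 1 and 0.30 in replicate 2 for cluster 2. The pooled count and GC content of the bins had a rho of -0.09 in cluster 1 (-0.24 in replicate 1 and -0.17 in replicate 2) and -0.47 in cluster 2 (-0.30 in replicate 1 and -0.26 in replicate 2). With the count of protein-coding genes, rho was -0.33 in cluster 1 (-0.29 in replicate 1 and -0.54 in replicate 2) and -0.32 in cluster 2 (-0.19 in replicate 1 and -0.35 in replicate 2). Between optimal peaks and piRNA genes rho was -0.08 in both clusters. Across the 112 bins of the rest, 33 of them without a piRNA gene, pooled regions and piRNA genes had a rho of -0.32. It was -0.24 in replicate 1 and -0.28 in replicate 2. In the rest, rho of the pooled count was -0.31 with protein-coding genes, near that of the clusters, and -0.16 with GC content. Neighbouring bins share sequence composition, and the bins of each cluster come from the same libraries, so these correlations are descriptions only.

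Over both clusters together, the excess lay among the weaker regions and not among the strongest, but the clusters differed. The 77 optimal peaks of the clusters (40 in cluster 1 and 37 in cluster 2) came to 12.4 per Mb, against 14.8 per Mb for the 167 of the rest, a ratio of 0.84. Regions ranked 1489 to 10000 had a ratio of 1.13, those ranked 10001 to 20000 one of 1.33, and those ranked 20001 to 30000 one of 1.24. When each replicate's own 1488 strongest regions were counted, the ratio was 0.84 in replicate 1 and 0.80 in replicate 2. For optimal peaks alone the ratio to the rest was 1.08 in cluster 1 and 0.68 in cluster 2. For ranks 1489 to 10000 it was 0.94 in cluster 1, where it was 1.11 by replicate 1 and 0.93 by replicate 2, and 1.26 in cluster 2. In cluster 1 the pooled excess thus lay mainly in the ranks past 10000, at 1.24 for ranks 10001 to 20000 and 1.16 beyond. For the same ranks, the cluster 1 ratios were 1.01 and 1.09 in replicate 1, and 1.05 and 1.01 in replicate 2. Neither replicate list reached the pooled values.

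**Figure D2:**
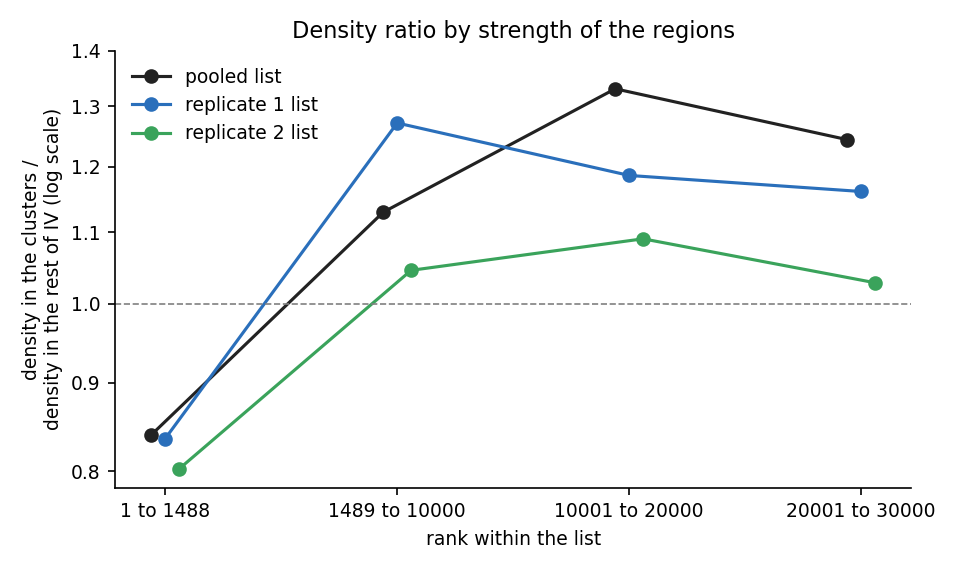
Ratio of region density in the clusters to that in the rest of chromosome IV (vertical axis, log scale) by rank within each list (horizontal axis); the strongest 1488 of the pooled list are the optimal peaks, points are single values and the dashed line marks equal density. All 3 lists lie below 1 for the strongest regions (0.84, 0.84 and 0.80) and above 1 for every weaker class.

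As a share of all ranked regions, optimal peaks made up 3.34% (95% interval 2.65 to 4.16%) in the clusters and 4.84% (4.15 to 5.61%) in the rest, against 4.96% over the whole genome. The share was 4.71% (3.38 to 6.35%) in cluster 1 and 2.55% (1.80 to 3.49%) in cluster 2. Since the optimal set was the top of the ranking, this share restates the strength of the regions. The median signal value, the authors' own score, was 18.7 in the clusters and 19.2 in the rest in the pooled list. In replicate 1 it was 13.2 in the clusters and 13.1 in the rest, the opposite order, and in replicate 2 it was 8.80 in the clusters and 8.84 in the rest. Signal scales differ between lists, and the ratio of the medians was 0.971 in the pooled list, 1.01 in replicate 1 and 0.995 in replicate 2. The weakest optimal peak of the clusters had a signal of 50.1 and the strongest cluster region outside the set had 49.2, so the edge of the set had no wide gap in signal. Among optimal peaks alone the median signal was 85.5 in the clusters and 81.5 in the rest.

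Of the 10 strongest peaks of cluster 1, 9 lay upstream of protein-coding genes. The strongest, with a pooled signal of 452 (306 in replicate 1 and 141 in replicate 2), was at chrIV:4749952-4750201, 176 bp upstream of the start of Y17G9B.5 and 286 bp upstream of that of rpl-20. The gene rpl-20 encodes a protein of the large ribosomal subunit. The nearest piRNA start was 17660 bp away. Its rank was 10 in the pooled list, 6 in replicate 1 and 27 in replicate 2, so it was among the strongest in each.

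The next peaks of cluster 1 followed the same arrangement. W03F8.4 had a signal of 254 (172 in replicate 1 and 89.7 in replicate 2), with the summit 273 bp upstream. A peak of 224 lay 747 bp upstream of ipla-6, a phospholipase gene, and 912 bp upstream of mif-4, a relative of macrophage migration inhibitory factor. Peaks of 216 at Y73B6BL.29, 213 at ruvb-2 and 196 at sqd-1 had summits 49, 119 and 297 bp upstream. The gene ruvb-2 encodes a RuvB-like ATPase of chromatin remodelling complexes. A peak of 185 lay 175 bp upstream of timm-17B.1, which encodes a subunit of the mitochondrial inner membrane translocase, and 1400 bp upstream of hoe-1, a tRNA 3′ processing endonuclease gene. A peak of 164 lay 95 bp upstream of perm-3, an eggshell permeability gene, and 134 bp upstream of swsn-6, a SWI/SNF remodelling subunit. C49A9.10, with a signal of 129, completed the promoter peaks among the 10 strongest, its summit 262 bp upstream.

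Outside every protein-coding start window, which took in 2000 bp before and 500 bp after each gene start, cluster 1 held 12 optimal peaks. The strongest was in an intron of kcc-2, a potassium-chloride cotransporter gene, 6570 bp inside the gene, with a signal of 140 (84.3 in replicate 1 and 59.9 in replicate 2) and a piRNA start 182 bp from its summit. An intron of the forkhead factor gene fkh-7 held peaks of 101.2 and 99.01. The stronger of these ranked 267 in replicate 1 and 3587 in replicate 2, so it stood far lower in replicate 2. A peak of 94.4 lay 3767 bp upstream of lip-1, which encodes a MAP kinase phosphatase, and ranked 548 in replicate 1 and 476 in replicate 2. An annotated ncRNA gene lay nearer, 116 bp from its summit. A peak of 70.3 lay 687 bp downstream of the start of msp-65, a major sperm protein gene, but nearer, at 158 bp, to a gene annotated as snRNA.

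In cluster 2 the strongest peak, at chrIV:13695760-13696062 with a signal of 333 (196 in replicate 1 and 143 in replicate 2), lay in an annotated untranslated part of T23G4.127, 2811 bp inside the gene. A second peak of 145 lay 1012 bp upstream of the start of that gene. The next strongest, at chrIV:14464127-14464370, had a signal of 320 (170 in replicate 1 and 153 in replicate 2) and lay 263 bp upstream of dld-1, which encodes dihydrolipoamide dehydrogenase of mitochondrial metabolism. An annotated ncRNA gene lay 66 bp from its summit. All 3 of these peaks had their nearest piRNA start between 220 and 902 bp away.

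A peak of 288 lay 127 bp upstream of ntl-11, a subunit gene of the CCR4-NOT deadenylase complex, and one of 206 lay 218 bp upstream of its neighbour Y73F8A.27. A peak of 175 lay 164 bp upstream of mrps-7, a mitochondrial ribosomal protein gene, in a stretch where 4 protein-coding start windows overlapped. Its signal was 131 in replicate 1, where it ranked 91, and 50.8 in replicate 2, where it ranked 362. A peak of 161 lay 174 bp upstream of a gene identified as WBGene00185102. A peak of 128 lay 277 bp upstream of rpl-29, a ribosomal protein gene, and 786 bp upstream of thoc-7, a THO complex subunit gene.

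The optimal peaks of cluster 2 outside every protein-coding start window numbered 15, with a pair of overlapping regions counted separately. They included one of 162 in intergenic sequence 6520 bp upstream of Y105C5A.1, one of 128 in an intron of Y57G11C.22, and peaks of 116 and 98.4 in an intron of Y65A5A.2. The Y105C5A.1 peak stood at rank 239 in replicate 1 and rank 124 in replicate 2. The stronger Y65A5A.2 peak stood at rank 512 in replicate 1 and rank 275 in replicate 2.

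Over all 77 optimal peaks of the clusters, 50 summits (64.9%, 95% interval 53.2 to 75.5%) were in a protein-coding start window, against 123 of 167 (73.7%, 66.3 to 80.2%) in the rest. In cluster 1 the number was 28 of 40 and in cluster 2 it was 22 of 37. Of the 50, 46 summits were upstream of the nearest start and 4 downstream, with a median of 206 bp for the upstream ones, and 29 lay in the windows of at least 2 genes. Since a window took in 2000 bp before a start and 500 bp after it, most of its length was upstream by definition. A match in both replicate lists was found for 76 of the 77. The exception, at K08F11.1 with a pooled signal of 60.6, overlapped no region of replicate 1 and ranked 571 in replicate 2.

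Among all ranked regions, 31.5% (29.6 to 33.4%) of cluster summits were in a protein-coding start window, against 42.4% (40.7 to 44.1%) in the rest. Those windows took up 31.3% of the sequence of the clusters and 40.5% of that of the rest, so both shares were close to the share of sequence. Counted by gene, 560 of the 941 cluster genes (59.5%, 56.3 to 62.7%) had a ranked region in the start window, against 55.3% (53.3 to 57.4%) in the rest and 54.9% over all chromosomes. The order did not hold in replicate 2, where the share was 56.2% in the clusters and 57.7% in the rest, while in replicate 1 it was 62.0% in the clusters and 55.4% in the rest. An optimal peak was in the window of 83 cluster genes (8.82%, 7.09 to 10.8%), against 8.42% (7.32 to 9.62%) in the rest and 8.28% over all chromosomes. The counting intervals of these shares overlapped, although per Mb optimal peaks were fewer in the clusters. By cluster the share of genes with an optimal peak was 10.4% in cluster 1 and 7.19% in cluster 2.

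Ranked regions of the clusters lay nearer to piRNA starts than cluster sequence did as a whole, and optimal peaks lay farther away. Within 100 bp of a piRNA start were 962 of the 2303 summits, or 41.8% (39.7 to 43.8%), against 29.8% of all cluster sequence. The share was 40.8% of replicate 1's own cluster regions and 35.8% of those of replicate 2, so the difference from sequence was 11.98 percentage points in the pooled list, 11.02 in replicate 1 and 6.01 in replicate 2. By interval, the pooled shares were 25.6% of summits and 17.0% of sequence in cluster 1, and 51.2% of summits and 38.5% of sequence in cluster 2. In cluster 1 the share of summits was 23.5% in replicate 1 and 19.5% in replicate 2. In cluster 2 it was 50.7% in replicate 1 and 46.1% in replicate 2. The median distance from pooled summit to piRNA start was 130 bp over both clusters, against 249 bp for cluster sequence.

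Of the 77 optimal peaks, 2 (2.60%, 0.32 to 9.07%) had a summit within 100 bp of a piRNA start. The median distance over the 77 was 1333 bp. The first is the peak at 21ur-8457, whose summit was 8 bp downstream of the piRNA start, with a signal of 85.7 (60.2 in replicate 1 and 23.2 in replicate 2). The second lay 86 bp upstream of 21ur-3500 and 991 bp upstream of prdh-1, with a signal of 51.2 (36.5 in replicate 1 and 11.98 in replicate 2). Both ranked lower in replicate 2, at 1538 and 7391, than in replicate 1, at 551 and 1233. Each replicate's own 1488 strongest regions also held few near piRNA starts, with 5 of 78 in replicate 1 and 3 of 78 in replicate 2.

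**Figure D3:**
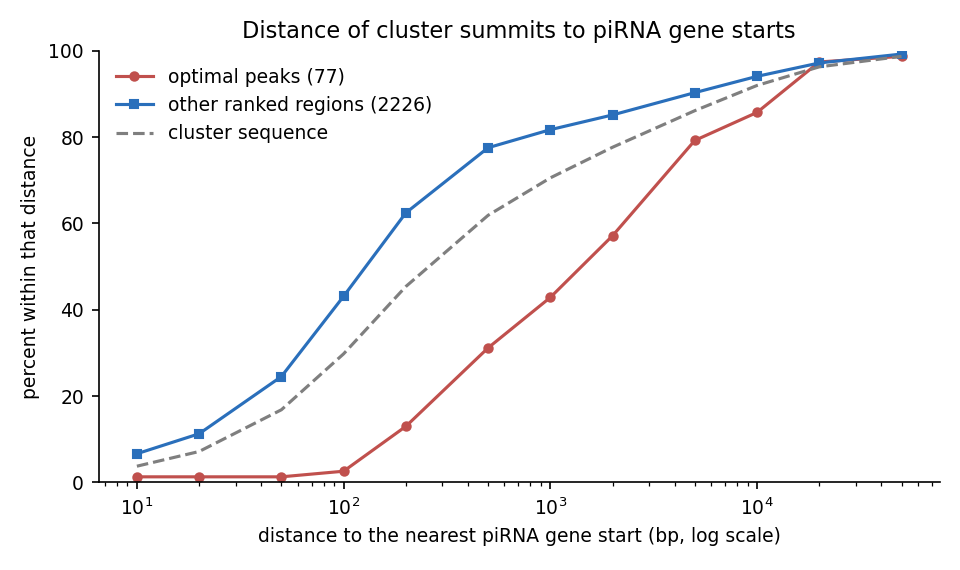
Share of summits within a given distance (horizontal axis, bp, log scale) of the nearest piRNA gene start, for the 77 optimal peaks and the 2226 other ranked regions of the clusters, with the share of all cluster sequence as the dashed line. At 100 bp the shares were 2.60% for optimal peaks, 43.1% for the other regions and 29.8% for sequence.

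The other 4 regions at the piRNA genes printed above were weaker and uneven between replicates. The region at 21ur-14711, with its summit 1 bp from the start, had a signal of 46.2 and ranked 13581 in replicate 1 and 1104 in replicate 2. The region 86 bp from 21ur-10317 had a signal of 46.0, ranked 1033 in replicate 1 and had no counterpart in replicate 2. The region 77 bp from 21ur-4403, in an intron of Y57G11C.22, had a signal of 45.1 and ranked 2156 in replicate 1 and 4905 in replicate 2. The region 64 bp from 21ur-3410 had a signal of 44.5 and ranked 4316 in replicate 1 and 8489 in replicate 2.

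Seen from the piRNA genes, 2435 of the 14204 cluster starts (17.1%, 16.5 to 17.8%) were inside a pooled region, while those regions covered 12.3% of cluster sequence and 13.7% of it outside coding exons. In replicate 1 the share was 16.5% of starts against 12.01% of sequence, and in replicate 2 it was 12.9% of starts against 10.3% of sequence. The rest of chromosome IV also had more cover at starts, with 80 of its 510 (15.7%, 12.6 to 19.1%) against 10.2% of sequence. There replicate 1 covered 15.1% of starts and 10.1% of sequence, and replicate 2 covered 13.7% of starts and 9.84% of sequence. Cluster starts with CTGTTTCA in the 70 bp upstream were covered as often (17.1%, 16.1 to 18.2%) as cluster starts without it (17.2%, 16.4 to 17.9%). In the rest, 35 of 161 starts with it (21.7%, 15.6 to 28.9%) and 45 of 349 without it (12.9%, 9.56 to 16.9%) were covered. The pooled profile around the cluster starts was shallow, with 17.4% of positions covered from 200 to 101 bp upstream and 14.4% at the far downstream end. Replicate 1 was highest in the last 100 bp before the start, at 16.6%. Replicate 2 had no maximum at the start: its cover was highest from 500 to 401 bp upstream, at 13.3%, and 12.7% in the last 100 bp. Optimal peaks covered 0.367% of cluster sequence but 13 starts, 0.0915% of them.

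**Figure D4:**
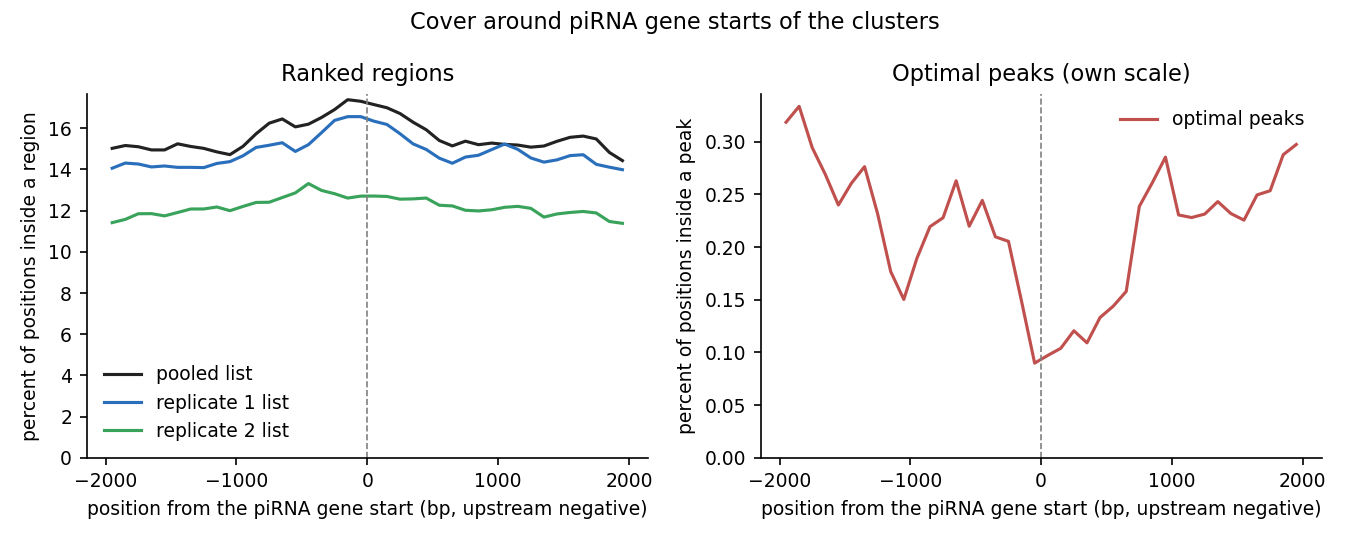
Percent of positions inside a ranked region (left, pooled, replicate 1 and replicate 2 lists) or an optimal peak (right, own scale) by position from the starts of the 14204 piRNA genes of the clusters, in 100 bp steps with upstream negative. Pooled cover is highest from 200 to 101 bp upstream of the start, at 17.4%, and replicate 2 cover from 500 to 401 bp upstream, at 13.3%. Cover by optimal peaks is lowest in the last 100 bp before the start, at 0.0899%.

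GC content moved with these differences. The 201 bp window around cluster summits had a median GC content of 27.9%, against 31.3% for summits of the rest, while the sequence had 33.0% in the clusters and 35.5% in the rest. Cluster sequence within 100 bp of a piRNA start averaged 28.5% GC and the remainder of the clusters 34.9%. Optimal peaks were of higher GC content in both places, with medians of 39.8% in the clusters and 40.8% in the rest. Regions were dense wherever GC content was low: windows of 20 to 25% GC held 72.8 pooled regions per 100 kb in the clusters and 82.6 in the rest, and windows of 40% GC and over held 17.3 in the clusters and 16.7 in the rest.

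When the rest of the chromosome was weighted to the GC bands of the clusters, its pooled density became 38.1 per 100 kb against 37.1 in the clusters, a ratio of 0.98. The same ratio was 0.98 in replicate 1 and 0.94 in replicate 2. In all 3 lists the clusters were then no denser than the weighted rest. In cluster 1 the weighted pooled ratio was 1.00 and in cluster 2 it was 0.96. This weighting was added after the data were seen.

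The difference in nearness to piRNA starts was also smaller after weighting, though still positive in each list. With cluster sequence weighted to the GC bands of the summits, 38.5% of it was within 100 bp of a piRNA start, which left a difference of 3.30 percentage points from the 41.8% of summits. The difference left was 2.92 points in replicate 1 and 1.83 points in replicate 2. In cluster 1 it was 3.30 points in the pooled list, 1.47 in replicate 1 and 0.43 in replicate 2, and in cluster 2 it was 3.38 pooled, 3.41 in replicate 1 and 2.55 in replicate 2. Within windows of 25 to 30% GC, the clusters had 52.9 pooled regions per 100 kb near piRNA starts and 45.8 away from them, while the rest of the chromosome had 48.1. Within windows of 20 to 25% GC, the clusters had 79.5 near piRNA starts and 64.5 away, while the rest had 82.6. In replicate 2 the same band had 45.8 near piRNA starts, 40.7 away and 48.3 in the rest. In the band of 25 to 30% GC, replicate 2 had 39.7 near piRNA starts, 36.0 away and 41.5 in the rest, an order between near and rest opposite to that of the pooled list. Over the 6 GC bands, density near piRNA starts was above that away from them in 5 bands of the pooled list, 4 of replicate 1 and 5 of replicate 2. It was above that of the rest of the chromosome in 4 bands of the pooled list, 3 of replicate 1 and 4 of replicate 2, so no list had one order throughout.

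**Figure D5:**
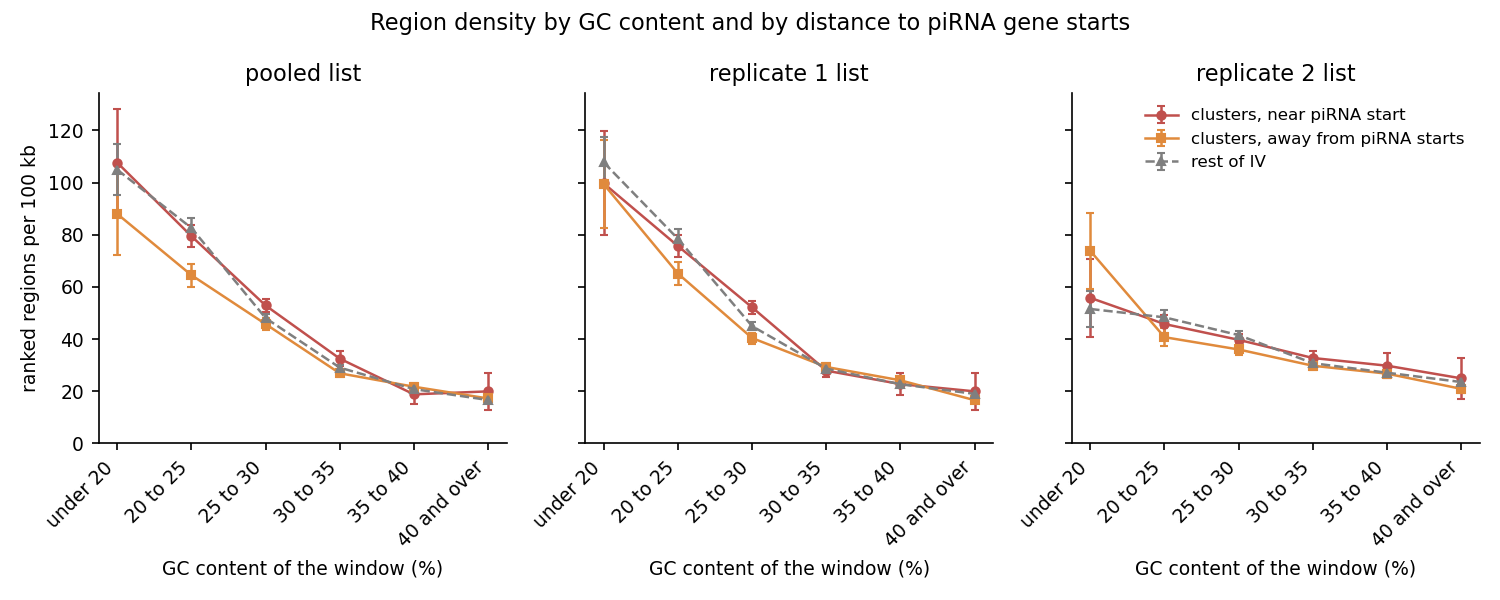
Ranked regions per 100 kb (vertical axis) by GC content of the 201 bp window (horizontal axis, percent) for cluster sequence within 100 bp of a piRNA start, cluster sequence away from piRNA starts, and the rest of chromosome IV, in each list; bars are the square root of the count, so cover counting error only. All 3 kinds of sequence are densest at low GC content, and at 40% GC and over the pooled list has 19.97, 17.2 and 16.7 per 100 kb in them.

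Coding exons held 12.4 pooled regions per 100 kb in the clusters and 12.6 in the rest, introns 43.2 in the clusters and 37.0 in the rest, and intergenic sequence 41.8 in the clusters and 36.1 in the rest. Outside coding exons the clusters held 53.6 per 100 kb within 100 bp of piRNA starts and 36.4 away from them, while the rest, with 37 regions near piRNA starts, held 49.0 near and 36.7 away. Replicate 1 gave 51.9 near and 35.01 away in the clusters, and 41.03 near and 36.5 away in the rest. Replicate 2 gave 39.7 near and 32.4 away in the clusters, and 46.3 near and 34.9 away in the rest. Density near piRNA starts was thus the higher of the pair both in the clusters and outside them. In each list the cluster sequence away from piRNA starts was no denser in regions than the same kind of sequence elsewhere on the chromosome.

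The motif CTGTTTCA, on either strand and within 100 bp of the summit, was found in 457 cluster regions (19.8%) and in 74 regions of the rest (2.14%). Windows of the same length at all positions held it in 14.6% of cases in the clusters and 1.55% in the rest, so the contrast was also present in the sequence itself. Of the optimal peaks of the clusters, 6 of 77 had it. The Hox and PBX site TGATNNAT was in 15.98% of cluster regions and 15.3% of those of the rest, against 15.8% of all windows in the clusters. The homeodomain core TAATTA was in 15.8% of cluster regions and 13.2% of those of the rest, against 11.4% of windows in the clusters and 9.04% in the rest. TAATTA is itself rich in A and T, and how far GC content sets these shares was not tested. Each motif was counted on its own, overlapping matches included, and a match is not a binding site.

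Replicate support was weaker for cluster regions. A region of both replicate lists overlapped 745 of the 2303 pooled regions of the clusters (32.3%), against 37.7% in the rest. Replicate 1 overlapped 68.8% of them in the clusters and 69.7% in the rest, and replicate 2 overlapped 51.02% in the clusters and 56.7% in the rest. Leaving out optimal peaks, cluster regions near a piRNA start were found in both replicates in 26.8% of cases (24.0 to 29.7%), and those farther away in 32.5% (29.97 to 35.2%). The same weak regions had a median signal of 18.5 near piRNA starts and 18.5 away from them, so the medians were alike.

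Genes of the piRNA pathway itself were also looked up, from a list of 54 genes of which 51 matched the annotation by symbol. A ranked region was in the start window of 33 (64.7%, against 54.9% of all protein-coding genes) and an optimal peak in that of 6 (11.8%, against 8.28%). Of the 6 genes with an optimal peak, 5 act in amplification of the secondary 22G RNAs: simr-1 with a pooled signal of 202, rde-2 with 148, ekl-1 with 133, rde-8 with 98.6 and mut-15 with 91.2. That role held 14 of the 51 matched genes, most of them without an optimal peak. The sixth was nrde-2, a nuclear RNAi factor, with 75.2. None of these 6 lies in the clusters, and rde-8 is on chromosome IV outside them.

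Inside the clusters were 2 genes of the list, both with a weak region. The ribonuclease-domain gene nyn-1 in cluster 2 had a signal of 21.2 (rank 11049), and pgl-1, a P granule gene in cluster 1, had 18.5 (rank 15580). On the rest of chromosome IV, nrde-4 had a region of 26.7 and the Argonaute gene csr-1 had none. The PIWI gene prg-1 likewise had no ranked region in its start window. Of the 7 matched piRNA transcription genes, 5 had a ranked region and 0 had an optimal peak. Among them, prde-1 had a region of 13.9 (rank 28293), near the end of the list, and snpc-4 had one of 18.6 (rank 15449).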

How the data were processed

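LIN-39-eGFP ChIP-seq of whole L1 larvae was analysed from region lists in narrowPeak form on ce11 (WBcel235). Per the submitters' file notes, the authors derived the lists from replicate and control alignments. Aligner, peak caller and the value of the IDR cutoff were not given in the sources used here, so nothing is said of them. The signal of a region, as deposited, is a score of the authors whose scale is not stated. Its −log10 q, also deposited, saturates at 3.51 in the pooled list and was used for no result. The deposited summit offset, another number per region, placed each summit. Genes came from Ensembl release 115 and sequence from the RefSeq genome of the same build.

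Regions were assigned by summit. Gene starts are the outer ends of genes, and start windows run 2000 bp upstream to 500 bp downstream. Density, shares and medians were computed with Python 3.11.15, numpy 2.4.6, pandas 2.3.3 and scipy 1.17.1, and the functions were tested on simulated data. GC bands used 201 bp windows with limits at 20, 25, 30, 35 and 40%. Named genes are the protein-coding genes nearest to the 10 strongest optimal peaks of each cluster and to the 5 strongest outside start windows, so a noncoding gene can lie nearer. The piRNA genes at the 5 strongest regions within 100 bp of a piRNA start outside start windows were also named, as were pathway genes with an optimal peak or on chromosome IV. K08F11.1, prdh-1, 21ur-3500, prg-1, prde-1 and snpc-4 were named after their values were seen. The members and lists were chosen with earlier results of these data known. No region was shared with identical coordinates between the 2 replicate lists (0 of 30000). Replicates are biological per the labels. Alternatives covered single replicates, the limits of the intervals, the rest used, rank, build, windows, distances and overlap.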

Additional observations from a re-analysis of the deposited data

How the results depend on the processing

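No paired analysis was possible because the study has 1 group. Single replicate lists gave a density ratio of 1.04 to 1.19, an optimal peak density ratio of 0.803 to 0.836, an optimal share difference of -1.44 to -1.16 percentage points, a median signal ratio of 0.995 to 1.01, a start window difference of -12.9 to -11.8, a gene with region difference of -1.52 to 6.57, a piRNA proximity difference of 6.01 to 11.02 and a motif difference of 15.03 to 17.1. The strongest 10000 regions gave 1.09 for density, 0.988 for median signal, -13.2 for start windows and 8.16 for piRNA proximity, and for genes with a region they left a difference of 0.089 points (27.3% in the clusters and 27.2% in the rest). Against the stretch between the clusters alone, the optimal peak density ratio was 0.939, the optimal share difference -1.20 and the start window difference -16.5. With limits 100 kb inside, the optimal peak density ratio was 0.874. With the strongest 744 optimal peaks it was 0.954 and the share difference was -0.52. The start window difference was -8.32 with 1000 bp upstream and -13.1 with every transcript start. The piRNA proximity difference was 6.92 within 50 bp, and the motif difference was 27.5 over whole regions. Weighting by GC band, chosen after seeing the data, turned the density ratio to 0.976 and gave 3.30 for piRNA proximity. The cause of these shifts was not tested. Outside coding exons, also chosen then, piRNA proximity was 9.13, within the spread between replicates. The values not given here moved by less than the spread between replicates, except those of replicate support, which had no such spread and ran from -7.20 to -4.98. Without read numbers, depth limits how weak regions can be judged.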

Other observations

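Other short RNA genes of the clusters were counted by summits within 500 bp of their starts. The 41 tRNA genes of the clusters had 26 such regions, 1.13% of cluster summits against 0.619% of cluster sequence, and in the rest of chromosome IV the 30 tRNA genes had 19, 0.551% of summits against 0.257% of sequence. None of the 26 was an optimal peak. The 18 snoRNA genes of the clusters had 10 regions, 0.434% of summits against 0.291% of sequence, and the 41 of the rest had 22, 0.637% of summits against 0.352% of sequence. Optimal peaks were 3 of the 10 and 8 of the 22, and 2 of the 3 were overlapping regions at the same gene, Y67A10A.14; over all cluster regions 3.34% were optimal. The 19 miRNA genes of the clusters had 10 regions, 0.434% of summits against 0.294% of sequence, and the 31 of the rest had 9, 0.261% of summits against 0.257% of sequence. Optimal peaks were 3 of the 10 in the clusters and 1 of the 9 in the rest. The 16 snRNA genes of the clusters had 8 regions, 1 of them optimal, and the 25 of the rest had 13, 4 of them optimal. For the 321 genes annotated as ncRNA in the clusters there were 131 regions, 5.69% of summits against 4.16% of sequence. The 737 of the rest had 229, 6.64% of summits against 5.17% of sequence. Optimal peaks were 11 of the 131 and 22 of the 229. The 175 pseudogenes of the clusters had 43 regions, 1.87% of summits against 2.75% of sequence, and none was an optimal peak. The 206 of the rest had 40, 1.16% of summits against 1.81% of sequence, and 1 of the 40 was an optimal peak.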
